A study of Mus musculus with 4 samples.

Results

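Ring1B is the catalytic subunit of Polycomb repressive complex 1 (PRC1), which attaches ubiquitin to histone H2A and helps to keep developmental genes silent. PRC1 is best known for wide domains over the promoters of developmental regulators, many of them in stretches rich in CpG dinucleotides, but variant forms of the complex are recruited to single promoters by DNA-binding partners such as Mga and Max or E2f6. The promoters described here are those at which Ring1B enrichment in wild-type mouse embryonic fibroblasts was high at one place and low over the rest of the tiled DNA. The measure was the log2 ratio of Ring1B immunoprecipitate to input, centred on the median of each array. A promoter was called narrow if its highest mean over 3 neighbouring probes (its window, at most 2000 bp) was at least 2 while the mean over all its probes was below 0.7. This held for 552 of 17395 named promoters with at least 5 probes. Another 996 promoters reached a window of 2 with a mean of 0.7 or more and are called broad below.

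The cells were fibroblasts from C57BL/6 embryos of day 12.5 at passage 2. They were either wild type or carried Phc2 L307R, a substitution in a polymer-forming subunit of PRC1, on both alleles. The study compared Ring1B binding between them on 2-colour promoter arrays, with the Ring1B immunoprecipitate labelled in Cy5 and the input in Cy3, after amplification with T7 RNA polymerase, and without a dye swap. The 4 arrays were of 2 designs with no probe in common, and each genotype had 1 array of either design, so that every promoter had 1 measurement per genotype and no p-value or error between cultures could be given. Wild-type and mutant arrays were scanned on different days, and scan day and genotype cannot be told apart. The genotype rests on the labels, and DNA arrays hold no fibroblast markers to check the cell type by. The SD printed beside a value is that over the 3 probes of the window.

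Of the 552 narrow promoters, 288 lay on design 1 and 264 on design 2. Their windows sat where the input was dim. All 3 window probes had input signal well above background at 146 of them (26.4%, against 45.7% of all promoters) on the wild-type array and at 123 (22.3%, against 34.6%) on the mutant one. Broad promoters of the same height were closer to them. With windows of 2 to 2.5 the shares were 27.6% of narrow and 34.9% of broad promoters in wild type, and 23.4% and 26.0% in the mutant. At 82 (14.9%, against 28.1% of all promoters) both channels were well above background at all 3 probes on both arrays. At 34 (6.16%, against 1.70% of all) on the wild-type array and at 57 (10.3%, against 4.81%) on the mutant one none of the 3 input probes was well above background, so that the ratio there has a denominator that was not measured above background. No window held a saturated probe. On the low side, 0 promoters had a lowest wild-type window at or below -2 and 542 at or below -1. In Phc2 L307R these counts were 4 and 1630. They do not measure how many high windows could come from noise.

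Promoter sequences are shown for 4 narrow promoters that have a single RefSeq start: Gata5, the highest window with all probes well above background, Mga, a partner of variant PRC1, and Tob2 and Atp5l, which were narrow under each of 6 other ways of computing membership that are given below. Each is the 250 bases before the start in GRCm38.p6, written 5′ to 3′ on the gene's strand, with CpG dinucleotides in capitals. Where the array windows lie relative to these bases is not known, because the assembly behind the array's coordinates was not given in the sources used here.
Gata5 (chr2:180334680-180334929, minus strand): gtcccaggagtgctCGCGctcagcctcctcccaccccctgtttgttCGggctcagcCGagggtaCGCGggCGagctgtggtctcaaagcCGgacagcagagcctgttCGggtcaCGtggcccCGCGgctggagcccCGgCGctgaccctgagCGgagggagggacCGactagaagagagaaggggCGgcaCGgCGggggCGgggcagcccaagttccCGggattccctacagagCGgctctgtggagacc
Mga (chr2:119896978-119897227, plus strand): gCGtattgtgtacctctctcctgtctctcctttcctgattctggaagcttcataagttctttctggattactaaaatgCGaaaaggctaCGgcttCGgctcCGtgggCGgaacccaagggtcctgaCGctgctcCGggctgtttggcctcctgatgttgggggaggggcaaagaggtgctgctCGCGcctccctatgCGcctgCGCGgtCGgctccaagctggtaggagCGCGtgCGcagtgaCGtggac
Tob2 (chr15:81858327-81858576, minus strand): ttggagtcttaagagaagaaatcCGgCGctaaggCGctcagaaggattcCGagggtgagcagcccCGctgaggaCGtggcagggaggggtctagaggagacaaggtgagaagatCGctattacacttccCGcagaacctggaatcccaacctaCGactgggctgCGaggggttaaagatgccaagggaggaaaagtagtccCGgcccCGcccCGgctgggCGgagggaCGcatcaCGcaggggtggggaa
Atp5l (chr9:44920743-44920992, minus strand): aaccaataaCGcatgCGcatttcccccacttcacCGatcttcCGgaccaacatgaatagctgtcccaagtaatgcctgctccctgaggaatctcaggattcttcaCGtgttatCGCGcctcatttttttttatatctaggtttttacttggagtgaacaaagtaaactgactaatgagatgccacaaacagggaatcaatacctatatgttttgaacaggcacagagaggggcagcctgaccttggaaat
These hold 22, 18, 16 and 7 CpG dinucleotides in that order, against a median of 6 over 27025 RefSeq promoters (first start of each gene). The promoters on the arrays were themselves richer in CpG than RefSeq promoters at large. Over 300 bases (250 before the start and 50 after) the median was 16 at the 12734 measured promoters with a sequence (73.2%). Over all 27025 it was 7. The 4 promoters were picked singly and cannot show whether narrow promoters differ from other measured promoters in CpG. On either strand, the E-box CACGTG, the site type of Max partners, occurred once in Gata5 and once in Atp5l and in neither of the others, and 6.05% of the 27025 promoters held it. GGCGGGAA, an E2F-type site, was in none of the 4, against 1.88% of all. TCACGTGA, a longer E-box that contains CACGTG, and AANATGGC, a YY1-type site, were also in none, against 0.803% and 3.93% of all. The ETS-type letters CCGGAAG occurred once, in Atp5l, against 7.05% of all. GGGCGG, a GC box, occurred 2 times in Gata5 and in Tob2 and once in Mga, against 32.9% of all. Over the whole set the same comparison is void, since only 431 of the 552 promoters (78.1%) had an entry in the sequence table, so no share is given.

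The narrow windows were modest in height. In wild type they ran from 2.00 to 3.71 with a median of 2.19, against a median of 2.49 and a highest value of 6.09 at broad promoters. This gap follows in part from the rule, since a tall window raises the mean that the rule keeps below 0.7. The highest narrow window was that of Gsg1, a gene of the germ line, at chr6:135215885-135216194 in the positions of the files. Its 3 probes read 3.71, 3.42 and 3.98 on the wild-type array and 2.91, 3.56 and 3.20 on that of Phc2 L307R, while its 50 probes together averaged 0.46 in wild type. The probes of both genotypes thus overlapped at Gsg1. Gata5, a transcription factor gene of endoderm and heart (chr2:180263114-180263597), had probes of 4.06, 2.84 and 3.49 in wild type and of 3.19, 2.38 and 2.69 in Phc2 L307R, and a mean over its 43 probes of 0.61. Each Gata5 probe was higher in wild type than in the mutant, and all were well above background.

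The other 8 of the 10 highest windows were mixed in function. Zfp593, a zinc finger gene, stood at 3.65 in wild type and 2.99 in Phc2 L307R. Btbd4 (now Zbtb46), a zinc finger factor of dendritic cells, stood at 3.25 and 2.61. 2010001M09Rik (now Mzb1), a gene of the endoplasmic reticulum of B cells, stood at 3.42 and 2.08, and 4930546H06Rik (now Spaca6), a sperm membrane gene, at 3.14 and 2.34. Tpm4, a tropomyosin gene, had 3.06 and 3.26, with probes 1.21 apart in their differences (SD). A930008G19Rik (now Fam53b) at 3.62, Ankrd10 at 3.27 and Mga at 3.06 completed the list. At A930008G19Rik and Ankrd10 none of the 3 input probes was well above background in either genotype, and at Mga 1 was in wild type and 2 were in the mutant.

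The signal around a narrow window was gone within a few kilobases, as the plot of the ratio against distance shows. Probes in the central bin of 250 bp had a median of 2.24 in wild type over 531 promoters, and those 500 bp away stood at 1.07 on one side and 1.03 on the other. At 1000 bp the medians were 0.64 and 0.48, and at 2000 bp they were 0.18 and 0.08. Low flanks follow in part from the rule, which asks for a low mean. In Phc2 L307R, which the rule did not use, the profile had the same form, with 1.79 at the centre, 0.95 and 0.87 at 500 bp and 0.06 and 0.01 at 2000 bp. Among broad promoters of the same height (windows of 2 to 2.5) the wild-type median was still 0.87 and 0.85 at 2000 bp, and the mutant median 0.87 and 0.80.

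**Figure D1:**
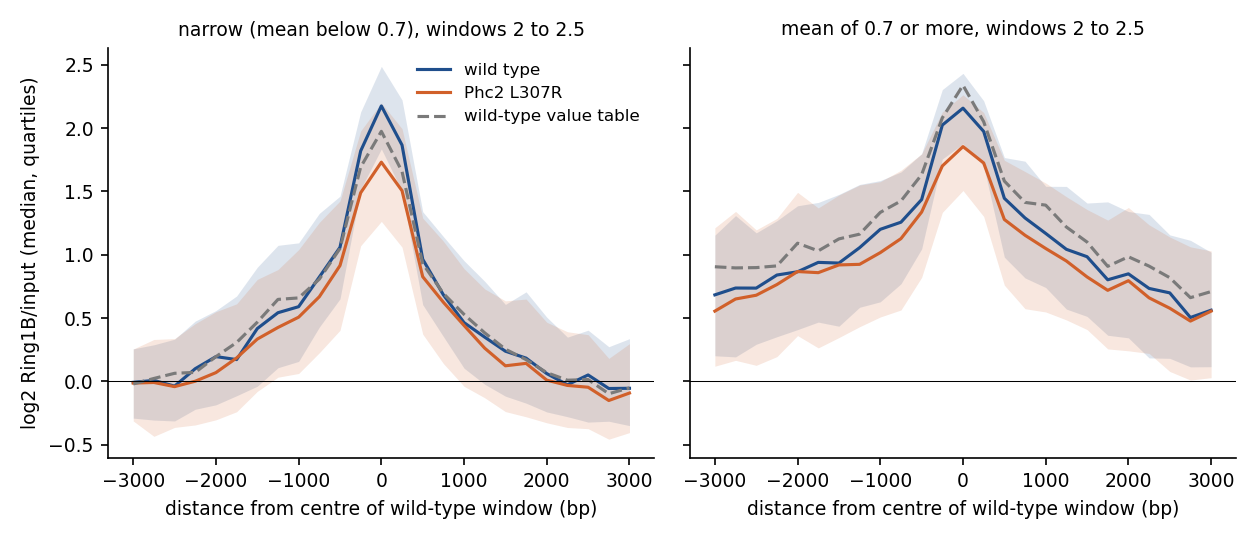
Median log2 ratio of Ring1B immunoprecipitate to input (lines, with quartiles as bands for the scanner values) against distance in bp from the centre of the wild-type window, for narrow (left, 478 promoters) and broad promoters (right, 504) with windows of 2 to 2.5. Blue is wild type, orange Phc2 L307R and the dashed grey line the wild-type value table; at 2000 bp the narrow wild-type median is 0.20 on the left and 0.06 on the right, and the broad one 0.87 and 0.85.

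The run of consecutive probes at or above 1 around the highest probe gave the width. At narrow promoters its median was 5 probes (748 bp) in wild type, 4 probes (558.5 bp) in Phc2 L307R and 4 probes (673 bp) in the wild-type value table. At broad promoters it was 9, 8 and 10 probes. From wild type to Phc2 L307R the run was shorter at 285 narrow promoters (51.6%), longer at 92 and equal at 175. A shorter run was found at 37.2% of all promoters, 55.9% of broad ones and 54.4% of those with a wild-type window of at least 2. The share among narrow promoters was thus no higher than among all with such a window. A run of at most 3 probes was found at 127 narrow promoters (23.0%) in wild type and at 244 (44.2%) in Phc2 L307R. Among those with a wild-type window of at least 2 these shares were 11.4% and 25.6%, and among all promoters 81.5% and 86.8%. Near the other end was Sox5, a factor of cartilage and nerve, whose run spanned 16 probes (3010 bp) in wild type and 15 (2815 bp) in the mutant.

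The signals of both channels were read at the windows. A low wild-type input follows in part from the rule, since the input is the denominator of the ratio that chose the window. At narrow windows the wild-type immunoprecipitate signal stood at a median of 1.31 above the array median (log2) and the input at -0.78, whereas at broad windows these were 1.89 and -0.49 and over all promoters 0.46 and -0.36. The input was farther below its array median than the immunoprecipitate was above its own at 184 narrow promoters (33.3%), against 46.2% of all promoters, 16.4% of broad ones and 24.4% of broad ones of matched height. The wild-type median of the input around narrow windows was -0.59 at the centre, -0.14 and -0.16 at 500 bp, and 0.21 and 0.08 at 3000 bp. At the centre of narrow and broad windows of matched height it was -0.59 and -0.44 in wild type. In Phc2 L307R, which the rule did not use, these were -0.41 and -0.42. The part of the input in the height of the peaks was not tested.

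**Figure D2:**
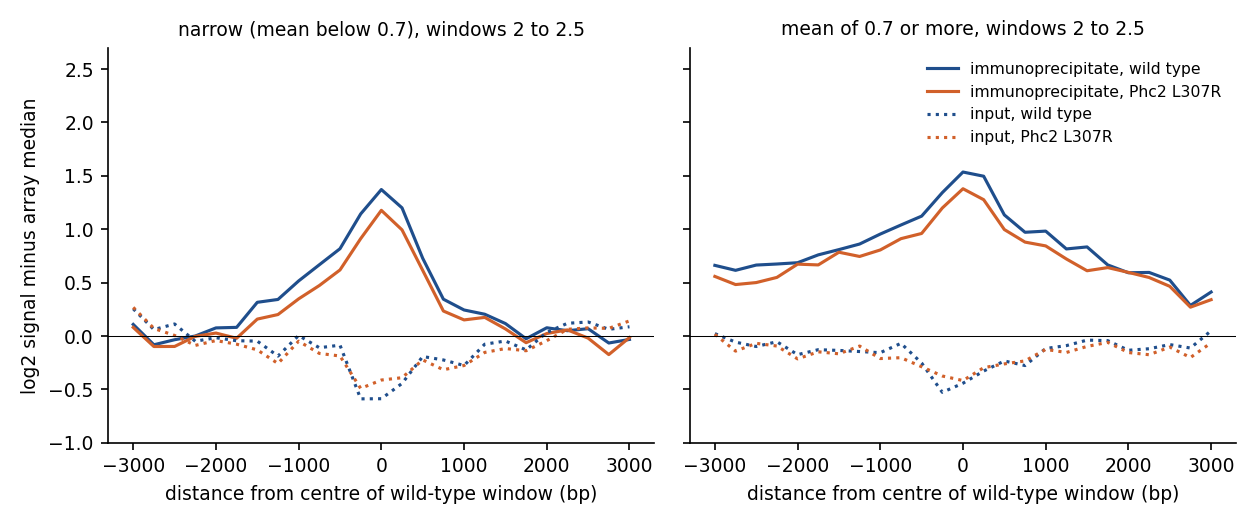
Median log2 signal of each channel minus its array median against distance in bp from the centre of the wild-type window, for narrow (left) and broad promoters (right) with windows of 2 to 2.5. Solid lines are the Ring1B immunoprecipitate and dotted lines the input, blue for wild type and orange for Phc2 L307R; at the narrow centres the immunoprecipitate rises to 1.37 in wild type and 1.18 in the mutant, and the input dips to -0.59 and -0.41, against -0.44 and -0.42 at the broad centres.

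Narrow windows sat at a preferred place in the tiled region. Along tiled blocks of at most 10000 bp with a known gene strand (319 narrow promoters), the window's centre lay at a median of 66.1% of the way from the upstream to the downstream end. The fifth of the block from 60 to 80% held 57.1% of narrow windows, 29.9% of broad windows and 35.3% of those below the threshold. Windows within 500 bp of a block's end, where the signal may go on outside the probes, were 61 of 552 narrow promoters (11.1%), against 21.5% of broad and 32.5% of all promoters. Several tiled blocks belonged to 116 narrow promoters, and at 49 of these the block that held the window had a mean of 0.7 or more, so that their low mean came from another block. A promoter shared by a pair of genes was found 9 times (1.63%), against 4.94% of all promoters.

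Families of developmental genes had many broad promoters and few narrow ones in number. Over all promoters 3.17% were narrow and 5.73% broad. Of 36 Hox promoters 0 were narrow and 32 were broad, and of 149 other homeobox promoters 2 (1.34%) were narrow and 108 broad. The 2 narrow homeobox genes were Dlx3, of skin and placenta, with 2.37 in wild type and 2.14 in Phc2 L307R, and Tgif2, a repressor in Tgf-beta signalling, with 2.02 in wild type and a difference of -0.51. Forkhead, Sox, T-box and Gata genes had 3 narrow (3.66%) and 45 broad promoters among 82, with Gata5 and Sox5 (2.67 and 2.17) the highest of the 3. Among 63 bHLH factor genes 3 (4.76%) were narrow and 30 broad, led by the somite factor Tcf15 (2.38 and 1.68) and the neural factor Hes6 (2.11 and 1.65). Of 119 Wnt, Fgf, Bmp, hedgehog and Notch genes 2 (1.68%) were narrow and 32 broad, and both narrow ones encode receptors: Notch2 had 2.12 and 1.80, and Fgfr2 2.08 and 1.77.

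**Figure D3:**
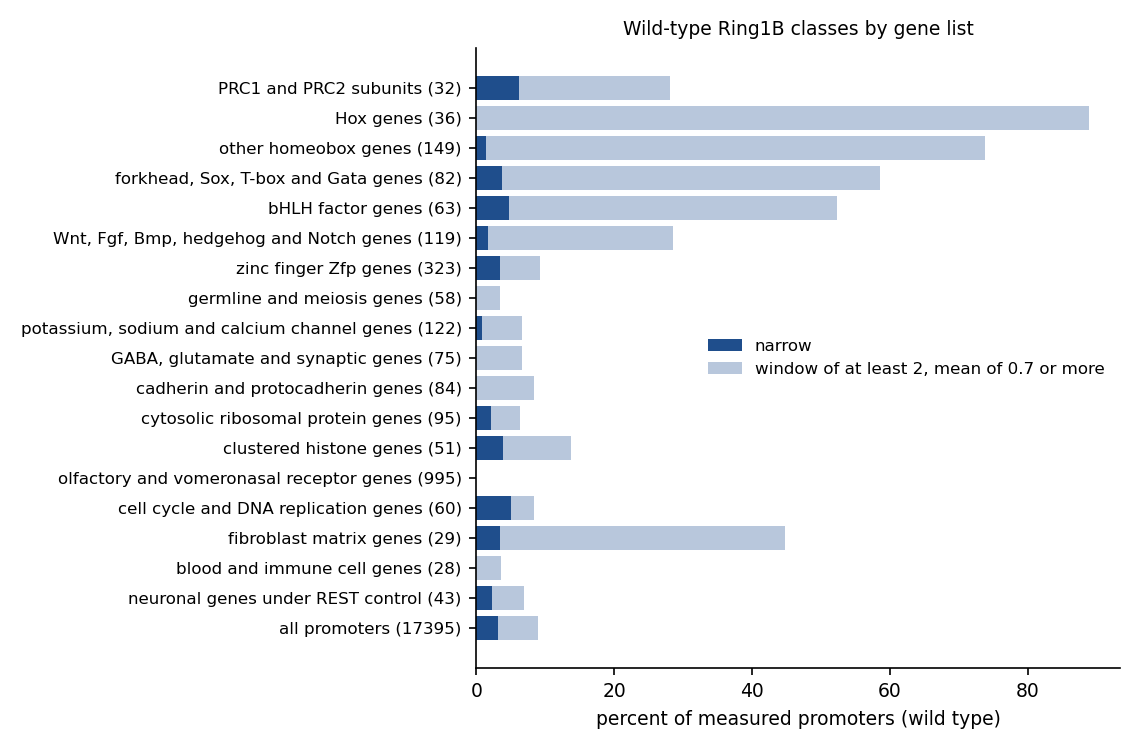
Percent of the measured promoters of each gene list (number measured in parentheses) that were narrow (dark) or broad (light) in wild type. Developmental factor lists reach far to the right through broad promoters, with 88.9% of Hox promoters broad and 0% narrow, while the dark part stays at or under 6.25% in every list.

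Genes of general cell functions supplied other members, in numbers near the overall share of 3.17%. Zinc finger Zfp genes had 11 narrow among 323 (3.41%), and 1 of them, Zfp365, was lower in the mutant by the size rule (2.29 and 1.25; named after its values were seen). Cell cycle and replication genes had 3 among 60 (5.0%), among them Mcm7, a subunit of the replicative helicase, and Cdc2a (now Cdk1), the mitotic kinase. The 3 probes of Mcm7 (chr5:138400608-138401055) read 1.96, 1.57 and 2.64 on the wild-type array and 2.11, 1.84 and 3.27 on that of Phc2 L307R, with input well above background throughout. Each Mcm7 probe was a little higher in the mutant, by less than the size rule. Cdc2a had 2.05 in wild type and 1.36 in the mutant. Ribosomal protein genes had 2 among 95 (2.11%), among them Rplp1 with 2.10 and 1.26. Clustered histone genes had 2 among 51 (3.92%), Hist1h3e with 2.33 and 1.73 and the shared promoter of Hist2h4 and Hist2h3c1 with 2.22 and 1.64.

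Subunits of the Polycomb complexes themselves had 2 narrow and 7 broad promoters among 32. Cbx6, a chromobox subunit of PRC1, stood at 2.35 in wild type (SD 1.17) and 1.63 in Phc2 L307R, and Mtf2, an accessory subunit of PRC2, at 2.08 and 1.76. Fibroblast matrix genes were 12 broad and 1 narrow among 29. The narrow one was Mmp2, a gelatinase gene, at 2.23 (SD 0.06) and 2.17 (SD 0.32). Potassium, sodium and calcium channel genes had 1 among 122, Kcna4 with 2.03 and 1.79, and neuronal genes under REST control 1 among 43, Dnm1 with 2.03 and 1.10. Lists with 0 narrow promoters, which hold chosen genes of each kind and not all of them (Gsg1, Spaca6, Mzb1 and Zbtb46 are on none of the germline and blood lists), were olfactory and vomeronasal receptors (995 measured), cadherins (84), GABA, glutamate and synaptic genes (75), germline and meiosis genes (58) and blood and immune genes (28).

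In Phc2 L307R the narrow windows were mostly at or above 1 and lower than in wild type by the scanner's own ratios. After normexp background correction 232 of the 552 were at or above 1 in the mutant and the median difference was -0.056, against -0.051 over all promoters. Normexp lowered the wild-type windows too, to a median of 0.94 at narrow promoters and 0.30 over all. The 232 are therefore no measure of loss from wild type, and no share over all promoters is given for them. By the scanner's ratios 524 (94.9%) were at or above 1 in the mutant, against 33.8% of all promoters and 97.4% of all those with a wild-type window of at least 2. Their mutant values ran from 0.27 to 3.72 with a median of 1.81. The highest mutant window lay at the same place (sharing at least 1 probe) at 480 (87.0%), against 64.9% of all promoters and 76.4% of those with a wild-type window of at least 2. The difference, Phc2 L307R minus wild type, had a median of -0.41 and was below 0 at 456 (82.6%), against 74.4% of all promoters and 81.3% of those with a wild-type window of at least 2. It was -0.40 at broad promoters and -0.24 over all. The window was chosen as the highest in wild type, which by construction favours wild type. With the window chosen in the mutant the median was -0.16 at narrow, -0.04 at broad and 0.15 over all promoters. Over all probes of a promoter the difference was far smaller, with a median of -0.09. It was below 0 at 412 narrow promoters (74.6%), against 61.1% of all and 74.2% of those with a window of at least 2.

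By a rule of size, a difference of at least 1 (2-fold) with all 3 probes on the same side, 59 narrow promoters were lower in Phc2 L307R and 1 was higher. Over all promoters the rule called 3.14% lower and 0.19% higher, and over those with a wild-type window of at least 2, 11.5% and 0.258%. The share of narrow promoters called lower was thus near that of all promoters of this height. At matched height (2 to 2.5) 46 of 478 narrow promoters (9.62%) and 20 of 504 broad ones (3.97%) were lower. In the deposited value tables this order was turned, with 5.44% of narrow and 18.3% of broad promoters lower. The count also differed between array designs, with 44 of 288 lower on design 1 (15.3%) and 15 of 264 on design 2 (5.68%). The share over all promoters of each design is not given, so whether this difference is particular to narrow promoters is not known. After normexp background correction, which damps ratios of dim probes, 6 narrow promoters were lower (1.09%, against 9.94% of broad and 0.76% of all promoters). With the window chosen in the mutant 21 were (3.80%, against 3.92% of broad and 0.49% of all).

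**Figure D4:**
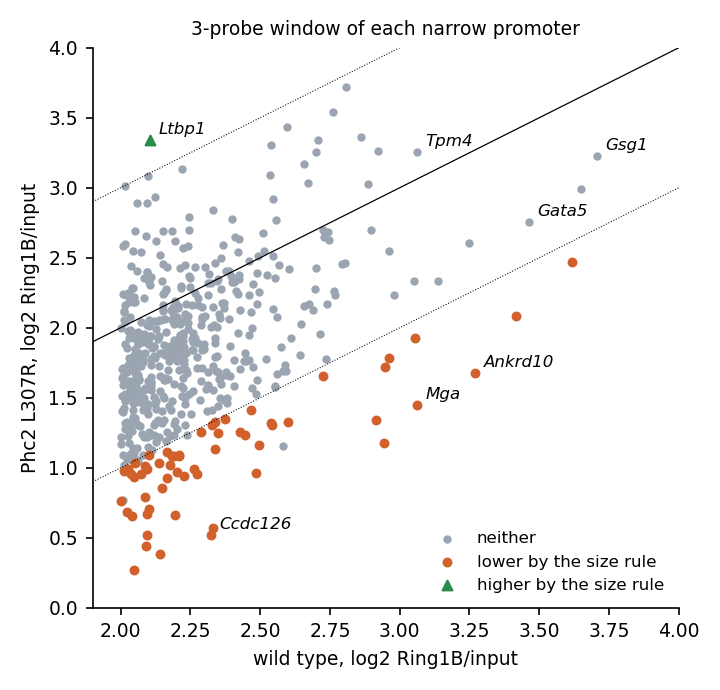
Mean log2 ratio of the 3-probe window of each of the 552 narrow promoters in Phc2 L307R against wild type, with the line of equality and dotted lines at a difference of 1. Orange points (59) were lower and the green triangle (Ltbp1) higher by the size rule; grey points beyond a dotted line had a probe on the other side.

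The calls of lower binding differed in which channel moved. Of the 59, the immunoprecipitate signal itself was lower by at least 1 at 9 and not lower at 12. At 33, which include these 12, the input rose by more than the immunoprecipitate fell, if it fell at all. The same counts among the lower calls of broad or all promoters are not given, so they are no trait particular to narrow ones. Over all narrow promoters the immunoprecipitate had a median difference of -0.17 and the input one of 0.18, against -0.11 and 0.09 over all promoters. Narrow promoters with an immunoprecipitate lower by at least 1 were 11 of 552 (1.99%), against 10.3% of broad and 1.09% of all promoters. At matched height these shares were 1.46% for narrow and 1.39% for broad promoters. All window probes were well above background on both arrays at 11 of the 59 and at 82 of the 552.

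Among the 10 lowest differences only Ccdc9, a coiled-coil gene, had all window probes well above background on both arrays. Its probes at chr7:15444410-15444866 read 1.97, 2.07 and 2.24 on the wild-type array and 0.35, 0.60 and 0.62 on that of Phc2 L307R, a difference of -1.57 (SD 0.09). The groups of probes did not overlap. Its immunoprecipitate signal went from 3.05 to 1.53 above the array median while the input stayed at 1.06 and 1.11. The mutant had its own highest Ccdc9 window elsewhere in the tiled DNA, where the difference was 0.17, and in the value tables the difference at the wild-type window was -0.68.

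Nr5a1, the gene of steroidogenic factor 1 in gonad and adrenal, had probes of 2.65, 1.85 and 4.24 in wild type at chr2:38534576-38535074 and of 1.23, 0.88 and 1.92 in the mutant. Each probe was lower in the mutant, with a mean difference of -1.57 (SD 0.69). The immunoprecipitate signal of Nr5a1 dropped from 1.99 to 0.93 and its input rose from -0.82 to -0.31. On either array 2 of the 3 input probes were well above background, and the window lay 324 bp from the end of the tiled block. 6430502M16Rik (now Ankrd34b) had 3.20, 2.94 and 2.69 in wild type against 1.59, 1.19 and 0.75 in the mutant, with an immunoprecipitate of 2.04 and 0.28 and nearly equal input (-0.75 and -0.78). Its input probes well above background were 3 in wild type and 1 in the mutant. Ptgis, the prostacyclin synthase gene, was picked out after its values were seen, because Ptgis and Nr5a1 were the only 2 of the 59 called lower under all 8 alternative settings for which single promoters were followed. Its probes read 2.23, 2.14 and 2.07 on the wild-type array and 1.10, 0.79 and 0.68 on that of Phc2 L307R, and its immunoprecipitate signal 2.23 and 0.99.

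Others of the 10 lowest differences came with a larger change in the input than at Nr5a1. At Ccdc126, with the largest difference (-1.80), the immunoprecipitate was higher in the mutant (0.02 against -0.69) and the input rose from -2.90 to -0.40, with no input probe well above background in wild type. Srp14, a signal recognition particle gene, had nearly the same immunoprecipitate in both (-0.86 and -0.96), with no input probe well above background in either. Mga had probes of 3.63, 2.39 and 3.17 in wild type and of 2.45, 1.60 and 0.30 in the mutant, a difference of -1.61 (SD 1.10), with an immunoprecipitate of 1.56 and 1.67. Another window of Mga, highest in the mean of both genotypes, gave 0.06. Lypla3 (now Pla2g15, a lysosomal phospholipase) had -1.65 with immunoprecipitates of 1.14 and 1.06. Gpr1, a chemerin receptor, had -1.78 (SD 1.36), with a change of -0.45 in the immunoprecipitate and of 1.31 in the input. In Prom1, with -1.76 (SD 0.80), both channels moved, by -0.81 and 0.94. In Ankrd10, with -1.59 (SD 0.30), the immunoprecipitate moved more (-0.87) than the input (0.71).

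**Figure D5:**
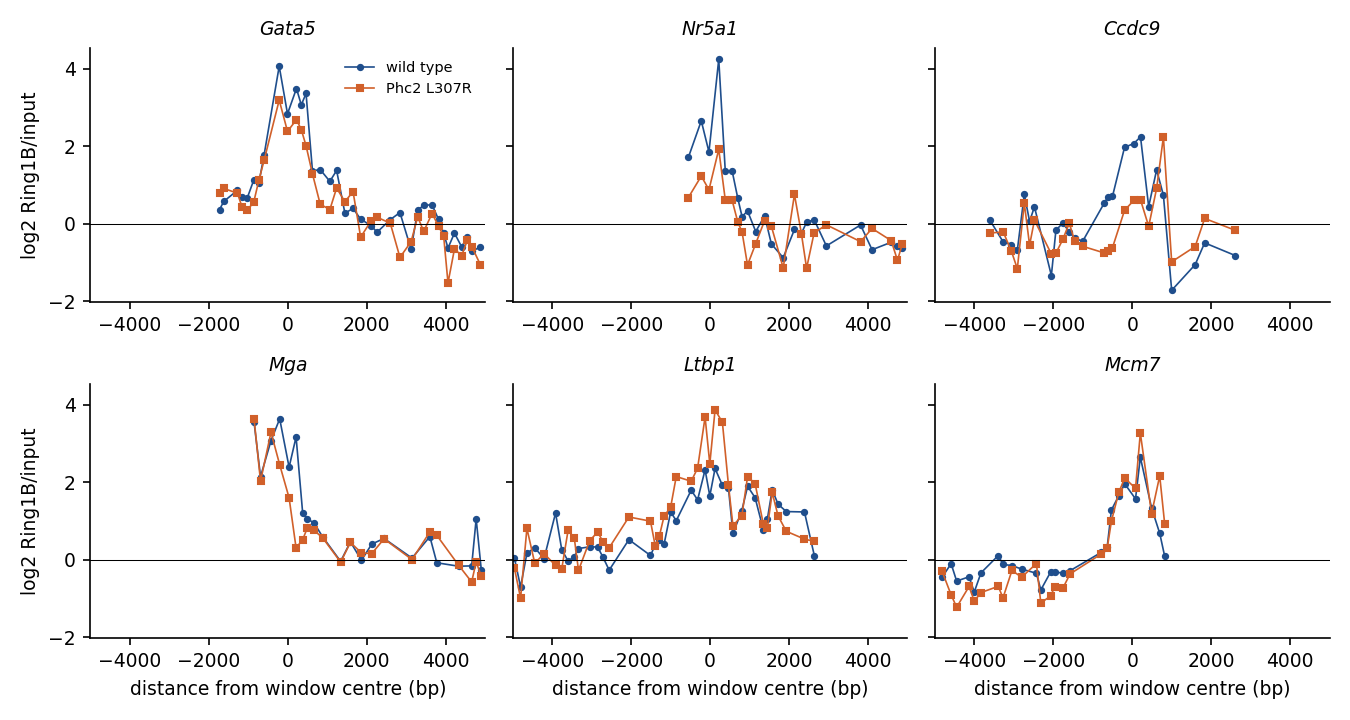
Log2 ratio of each probe against distance in bp from the centre of the wild-type window at 6 narrow promoters, chosen after their values were seen, with wild type in blue and Phc2 L307R in orange. Gata5, Nr5a1 and Ccdc9 are lower in the mutant at the centre, Mga is lower at and to the right of the centre and nearly equal to its left, Ltbp1 is higher and Mcm7 nearly equal; the probes of Nr5a1, Mga and Mcm7 end close to the peak.

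Ltbp1, which encodes a protein that holds latent Tgf-beta in the matrix, was the only narrow promoter higher in Phc2 L307R by the size rule. Its probes at chr17:75083581-75083885 read 2.32, 1.65 and 2.35 in wild type and 3.68, 2.47 and 3.86 in the mutant, a difference of 1.23 (SD 0.36). Each probe was higher in the mutant. The immunoprecipitate rose from 1.84 to 2.67, and 1 of the 3 input probes was well above background in the mutant. Its difference was 0.53 in the value tables, 0.57 with dim probes left out and 0.94 with the arrays set to a common spread, each under the size rule. Among the next were 1700034E13Rik with 0.99, Lamb1-1 (now Lamb1, a laminin gene) with 0.99 and Tnk2, a tyrosine kinase gene, with 0.91. None of these 3 had input well above background at all 3 probes in the mutant.

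Applied to the mutant arrays, the rule for a narrow promoter was met by 522 promoters (3.0% of all, and 18.8% of those with a wild-type window of at least 2), 216 of which were among the 552. Of the other members 306 had no window of 2 in the mutant and 30 had become broad. In the wild-type values that the authors tabulated, 585 promoters (3.36%, and 16.0% of those with a wild-type window of at least 2) met the rule and 219 of them were members, while 92 members were broad there and 241 had no window of 2. In all, 134 members were narrow by all 3 sets of values. At the window chosen from the scanner values, 548 members were at or above 1 in the value table, against 41.3% of all promoters and 99.7% of those with a wild-type window of at least 2. Over all probes of designs 1 and 2, Pearson's r between these tables and the scanner's own ratios for wild type was 0.854 and 0.891, and which array or processing gave the tables is not known.

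Membership was followed through 6 other ways of computing it: normexp background correction, loess, a common spread, the value tables, probes well above background only, and the mutant arrays. After normexp 28 of the 552 were still narrow, and with probes well above background only 149 were. Normexp lowered the wild-type windows of the 552 to a median of 0.94 while the height of 2 was kept, so the 28 are no measure of lost peaks. There were 7 members narrow in all 6. They were Gsg1, Suv420h1 (now Kmt5b, a histone H4 methyltransferase), Cpa1, a carboxypeptidase, Tob2, an antiproliferative protein, Atp5l, a subunit of ATP synthase, Adra2a, an adrenergic receptor, and Ugt2b34, a glucuronosyltransferase. Suv420h1 had a mean of 2.89 (SD 0.36) in wild type and of 3.03 (SD 0.25) in Phc2 L307R. Tob2 had means of 2.56 and 2.77, Atp5l of 2.43 and 2.38, Adra2a of 2.41 and 2.33 and Ugt2b34 of 2.36 and 2.27, all well above background on both arrays. Cpa1 had 2.61 and 1.93. These 7 include no call by the size rule. This follows in part from their choice, since the rule on the mutant arrays asked for a mutant window of at least 2.

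The thresholds cut through a continuum. Just inside the height of 2 were Mrgprf, Ifit2 and Crebl2 with 2.00 each, and just outside Ube2j1, Gnaq and 1200014J11Rik (now Ncbp3), also with 2.00. Just inside the mean of 0.7 were Gtf2a1, Sypl2 and Clcn3 with 0.70 each, and just outside Ankrd56, Gabpb1 and Gpiap1 with 0.70 each.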

How the data were processed

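Ring1B chromatin immunoprecipitation DNA of wild-type and Phc2 L307R fibroblasts was measured on 4 arrays of 2 designs. Per the file headers, Agilent Feature Extraction 10.7.3.1 gave each spot's intensity and the log10 ratio of Cy5 over Cy3 that it computed from background-subtracted, dye-normalized signals. The authors also deposited tables of log10 ratios. Those of Phc2 L307R differ from the scanner's ratios by one constant per array at 99.8% of probes (to within 0.01). The direction follows the dyes in the labels. The assembly of the probe positions was not given in the sources used here.

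Ratios were turned to log2 and centred on the array median, without control spots and outlier-flagged spots. Robust SDs of probe noise, from differences of neighbours, were 0.384 (design 1) and 0.345 (design 2) for wild type, and 0.436 and 0.418 for the mutant. Precision is limited by the number of arrays. Of the 552 names, 430 were current symbols, 105 older ones, 9 pairs and 8 unmatched. Members, lists and rules were chosen with earlier results of these data known. Named genes were the 10 highest windows, the 10 lowest and 10 highest differences, the 10 largest gaps between window and mean, up to 2 members of each of 18 lists and 3 promoters on each side of each threshold; other genes are marked in the text. Some genes that this rule names are not reported here. No test was possible with 1 array per genotype and design. The steps were tested on simulated data. Python 3.11.15 (numpy 2.4.6, pandas 2.3.3, matplotlib 3.10.9) and R 4.3.3 with limma 3.58.1 were used. Alternatives were normexp (offset 50), loess, a common spread of the arrays, the value tables, other probes, windows and thresholds, and single designs.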

Additional observations from a re-analysis of the deposited data

How the results depend on the processing

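The set itself depended on the processing. The rule found 144 promoters after normexp background correction (28 of them among the 552), 193 with probes well above background only (149), 159 with windows of 5 probes, 74 with a height of 2.5 and 272 with a mean below 0.5. It found 522 after loess (458 shared), 651 with a common spread (503) and 585 in the value tables (219). The median difference was -0.056 after normexp and -0.16 when the mutant's own highest window was used, and under the other settings between -0.58 and -0.20. Members lower by the size rule were 6 after normexp, 93 with a common spread, 38 in the value tables (15 of the 59), 19 without dim probes, 21 with the window of the mutant, 34 with that of the value table and 176 at 1.5-fold. With a common spread these were 16.8% of narrow, against 21.0% of broad and 4.50% of all promoters. In the value tables the shares were 6.88%, 40.6% and 4.30%. Over all promoters 0.76% were lower after normexp and 0.49% with the window of the mutant. For the other settings no share over all promoters is given. Members higher were 2 after normexp, 5 after loess, 0 with a common spread, 6 with the window highest in both, 10 with that of the mutant, 7 with that of the value table and 11 at 1.5-fold. Over all 17395 promoters, 14 were higher after normexp, 43 after loess and 17 with a common spread. With the window highest in both 193 of all promoters were higher, and with that of the mutant 474. After normexp 232 members were at or above 1 in the mutant, and the median wild-type window of the members was 0.94. The mutant run had a median of 6 probes at a threshold of 0.5. After normexp the difference was 0.25 at A930008G19Rik, 0.21 at Ccdc126 and 0.033 at Srp14. With other windows it was 0.061 at Mga (window of the mean of both, of the mutant or of the value table) and 0.17 at Ccdc9 (window of the mutant). On single designs the median difference ranged from -0.54 to -0.32 and over all probes from -0.11 to -0.08, members lower from 15 to 44, higher from 0 to 1 and at or above 1 from 259 to 265. The cause of these changes was not tested. Members tiled in 1 block, those well above background and those of 2 to 2.5, a choice made after seeing the data, had median differences of -0.42, -0.51 and -0.40. No paired analysis was possible because the numbers in the titles name array designs that hold different probes. In wild type all 3 input probes were well above background at 26.4% of narrow windows, 34.9% of broad ones of matched height and 45.7% of all. The effect of dim input on the ratio was not tested.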

Other observations

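Some members lay outside the rule for named genes and were chosen after their values were seen. Lcp1, which encodes the actin-bundling L-plastin of blood cells, had probes of 2.51, 2.55 and 2.28 in wild type and of 1.06, 1.85 and 0.79 in Phc2 L307R, with immunoprecipitates of 2.29 and 1.16 and input near the array median in both. Pdcl had 2.04 and 0.66, Tmem178 had 2.10 and 0.71, and Pigz had 2.95 and 1.72, each with an immunoprecipitate lower by over 1. All window probes of Lcp1, Pdcl and Tmem178 were well above background on both arrays, and those of Pigz were not. Rheb, the GTPase that activates mTORC1, stood at 2.59 in wild type and 1.74 in the mutant. Slit2, an axon guidance gene, met the size rule with -1.28 (SD 1.54), although its immunoprecipitate was higher in the mutant (2.41 against 0.55) and its input rose from -1.56 to 1.57.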
